A study of Mus musculus with 12 samples.

Results

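The genes of glycolysis and of the hypoxia response were followed in whole mouse lung 8 h after abdominal surgery. They are 34 named genes in 5 roles: glucose and lactate transporters, glycolytic enzymes and their regulators, subunits of the hypoxia-inducible factor (HIF), oxygen sensors, and other hypoxia-induced genes. A gene was represented by the probe set that carries its symbol alone, or an older or newer synonym, and has the highest mean log2 signal over the 12 arrays. Such a probe set was found for 31 of the 34, of 18161 genes in all. Gpi1 and Eno1 have no probe set of their own symbol alone, and Gapdh was measured only by 3 quality-control probe sets of the manufacturer. Of the 31, 30 passed the filter on low signals and were tested. Egln3, an oxygen sensor, did not.

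The arrays were Affymetrix 3-prime expression arrays hybridised with biotin-labelled cRNA from whole lung, 1 sample per array, in 4 groups of 3. The groups were PPTA-knockout mice after cecal ligation and puncture (CLP, a puncture of the bowel that models abdominal sepsis), PPTA-knockout mice after sham surgery, wild-type mice after CLP and wild-type mice after sham surgery. The wild-type mice were Balb/c, no strain is given for the knockout, and all were 8 to 10 weeks old, so strain and genotype cannot be told apart. The labels do not say how the PPTA gene was disrupted, or whether the triplicates of a group came from separate animals. The p-values therefore speak only of the variation among these 12 samples, part of which may be technical.

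Glycolysis turns glucose into pyruvate in the cytosol and yields ATP without oxygen, with lactate as the end product when pyruvate is not passed to the mitochondria. In hypoxia the HIF alpha subunits escape the prolyl hydroxylases that mark them for destruction, pair with Arnt, and switch on transporters, many glycolytic enzymes, and genes such as Adm and Bnip3 through a short DNA motif. Activated neutrophils and macrophages draw heavily on glycolysis, and in these cells inflammatory signals can induce Hif1a transcription also when oxygen is present.

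The core of that motif, the hypoxia response element, is ACGTG or GCGTG. It was looked for on both strands in the 250 bases before each transcription start that RefSeq annotates on GRCm38.p6. Of the 42 windows of the members, 35 held it, which is 83.3% against 38.6% of all 32851 windows. By gene it was 28 of the 30 members with a window, or 93.3%, against 41.5% of all genes with a window and 60.7% of those whose probe set was tested. The members were named as genes of these pathways, many of which HIF switches on. Their share thus describes how the list was made and is no result of the arrays. Matches within the E-box CACGTG, a motif of other factors, were in 5 of the 42 windows, or 11.9%, against 6.02% of all windows. The windows below are those of members described further on: Pfkfb3, Ldha and Hif1a, which rose, P4ha1 and Tpi1, which fell, and Slc16a3. Slc16a3 was higher after CLP too, but was tested only through the CLP arrays where it was high. Capitals mark the motif on either strand, and sequences run 5′ to 3′ along the gene.
Pfkfb3, window 1 (chr2:11553930-11554179, minus strand): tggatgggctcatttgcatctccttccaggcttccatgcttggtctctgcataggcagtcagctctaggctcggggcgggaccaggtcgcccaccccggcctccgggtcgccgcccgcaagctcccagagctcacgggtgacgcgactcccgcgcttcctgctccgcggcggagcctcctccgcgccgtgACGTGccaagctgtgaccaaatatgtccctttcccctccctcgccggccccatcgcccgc
Pfkfb3, window 2 (chr2:11502091-11502340, minus strand): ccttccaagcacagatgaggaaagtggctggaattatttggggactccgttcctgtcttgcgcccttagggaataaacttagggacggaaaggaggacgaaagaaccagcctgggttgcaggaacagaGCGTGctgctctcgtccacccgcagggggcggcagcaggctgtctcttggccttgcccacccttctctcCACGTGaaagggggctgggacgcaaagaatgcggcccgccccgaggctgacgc
Ldha, window 1 (chr7:46845554-46845803, plus strand): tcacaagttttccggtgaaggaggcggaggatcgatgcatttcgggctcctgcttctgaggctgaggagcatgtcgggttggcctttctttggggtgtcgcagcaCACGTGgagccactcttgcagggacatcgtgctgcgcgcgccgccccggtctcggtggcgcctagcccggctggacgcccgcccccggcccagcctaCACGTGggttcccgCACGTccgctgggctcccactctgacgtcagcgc
Hif1a (chr12:73907617-73907866, plus strand): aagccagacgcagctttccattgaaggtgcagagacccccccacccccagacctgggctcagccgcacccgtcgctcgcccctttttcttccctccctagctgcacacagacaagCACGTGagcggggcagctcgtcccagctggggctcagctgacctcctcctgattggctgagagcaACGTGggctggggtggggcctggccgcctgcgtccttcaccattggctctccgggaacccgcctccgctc
Slc16a3 (chr11:120948817-120949066, plus strand): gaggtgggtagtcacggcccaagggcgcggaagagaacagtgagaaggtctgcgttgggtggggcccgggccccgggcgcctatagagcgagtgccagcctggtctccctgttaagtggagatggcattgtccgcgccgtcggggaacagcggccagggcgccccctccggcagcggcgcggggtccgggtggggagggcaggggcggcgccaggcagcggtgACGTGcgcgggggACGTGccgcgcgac
P4ha1 (chr10:59323046-59323295, plus strand): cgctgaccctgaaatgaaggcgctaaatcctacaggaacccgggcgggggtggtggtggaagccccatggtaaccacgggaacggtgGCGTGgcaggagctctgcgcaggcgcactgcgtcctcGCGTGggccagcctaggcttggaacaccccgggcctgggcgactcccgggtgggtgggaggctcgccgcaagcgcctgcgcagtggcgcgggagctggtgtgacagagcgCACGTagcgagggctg
Tpi1 (chr6:124814159-124814408, minus strand): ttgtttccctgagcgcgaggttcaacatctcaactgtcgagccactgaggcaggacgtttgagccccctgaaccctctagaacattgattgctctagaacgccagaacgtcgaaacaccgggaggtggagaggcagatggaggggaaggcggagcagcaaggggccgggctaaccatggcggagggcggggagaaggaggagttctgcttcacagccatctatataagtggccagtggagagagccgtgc
The motif was present in all 8 members with a window that rose after CLP in knockout-labelled lung, in 3 of the 4 that fell, and in all 14 that were tested and not called. The Tpi1 window held none. A match is a run of letters in a window and not a site that a factor was shown to bind.

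The label was checked on Tac1, the present name of PPTA, which encodes the precursor of substance P. Its signal was 442, 337 and 462 on the knockout-labelled CLP arrays and 379, 441 and 530.3 on the knockout-labelled sham arrays, against 16.1, 3.95 and 12.4 on the wild-type CLP arrays and 5.25, 8.34 and 2.8 on the wild-type sham arrays. The knockout label thus went with the higher signal, by a log2 difference of 4.97 ± 0.33 (SE) after CLP and 5.70 ± 0.33 after sham. A second Tac1 probe set stayed between 1.26 and 15.97 on all 12 arrays, and where either of them lies with respect to the disrupted stretch was not given. The mice are called knockout-labelled below, and every difference between genotypes rests on that label.

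The deposited values are signals that had been scaled to a common trimmed mean of 150.001 on each array. The lung-defining markers Sftpc, Sftpb, Scgb1a1 and Ager summed to 34343 to 37913 in knockout-labelled CLP lung and 34461 to 38213 in knockout-labelled sham lung, against 40726 to 42157 in wild-type CLP lung and 40206 to 42722 in wild-type sham lung. None of the 4 was called for CLP in either genotype, but between genotypes 3 were called lower in knockout-labelled lung after CLP (Sftpc, Sftpb and Ager) and 2 after sham (Sftpc and Sftpb), by log2 differences of up to -0.33. Of all probe sets tested, 16.9% were called lower in knockout-labelled lung after CLP and 3.86% after sham. The summed signal of 10 neutrophil markers was 43541 to 47911 in knockout-labelled CLP lung and 10753 to 26769 in knockout-labelled sham lung, against 34689 to 38214 in wild-type CLP lung and 9640 to 16013 in wild-type sham lung. Of the 10, 8 rose after CLP in knockout-labelled lung and 7 in wild-type lung, beside 10.4% and 0.814% of all probe sets. Between genotypes after CLP, Ngp, Camp and Ltf were called higher in knockout-labelled lung and Mmp9 lower, at 29.5% of all probe sets called. That difference was above 0 for 7 of the 10 and below 0 for 3, Mmp9, S100a8 and S100a9. The sum of 8 macrophage and monocyte markers was 9444 to 10466 in knockout-labelled CLP lung and 3382 to 10260 in knockout-labelled sham lung, where array 3 held the highest value, against 2811 to 3296 on the wild-type arrays. Knockout-labelled sham array 3 stood apart: on it 714 probe sets exceeded both other arrays of its group by 2-fold or more and 874 lay below both by as much, more than on any other array. In whole tissue, more cells of a type and more RNA per cell cannot be told apart, and the part of these markers in the results below was not tested.

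After CLP in knockout-labelled lung, 10 of the 30 members tested rose and 4 fell, relative to knockout-labelled sham lung (limma, Benjamini-Hochberg adjusted p under 0.05 over 24574 probe sets). In the same comparison 10.4% of all probe sets rose and 18.8% fell, so that 29.2% were called. Slc2a1, Slc2a3, Slc16a3, Pfkfb3, Pgam1, Pkm, Ldha, Hif1a, Ndrg1 and Ddit4 were higher, and Pfkm, Tpi1, Egln1 and P4ha1 were lower. The median log2 difference was 0.287 over the members and -0.123 over all probe sets tested. The count was 9 without knockout-labelled CLP array 2 and 18 without knockout-labelled CLP array 1, and it was 14 without knockout-labelled sham array 3. Where the 2 knockout-labelled groups were fitted alone, 4 rose, Pfkfb3, Ldha, Hif1a and Ddit4, and none fell, at 10.9% of all probe sets called. Slc16a3 passed the filter on low signals only through CLP arrays, so that its rise was part of how it came to be tested.

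In wild-type lung 2 of the 30 rose after CLP, Slc2a3 and Slc16a3, and none fell, at a background of 0.948% of all probe sets called (0.814% up and 0.134% down). The log2 difference was above 0 for 23 of the 30, against 39.1% of all probe sets tested. The median was 0.164 over the members and -0.048 over all. The wild-type count was 1 without wild-type CLP array 1, 2 or 3, wild-type sham array 1 or 3, or knockout-labelled sham array 2, since Slc16a3 then missed the threshold (adjusted p of up to 0.21). Without wild-type sham array 2 Slc16a3 missed it (adjusted p = 0.122) and Ddit4 passed, and the count was 3 without knockout-labelled CLP array 1. Where the 2 wild-type groups were fitted alone, 6 members were called, all up: these 2 with Slc2a1, Hk3, Pkm and Bhlhe40, at 5.21% of all probe sets called. The counts of 14 in knockout-labelled and 2 in wild-type lung thus stood at 4 and 6 in fits of 2 groups. Slc16a3 was tested only through CLP arrays where it was high. With no filter, or one of 9 arrays, only Slc2a3 was called in wild-type lung.

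**Figure D1:**
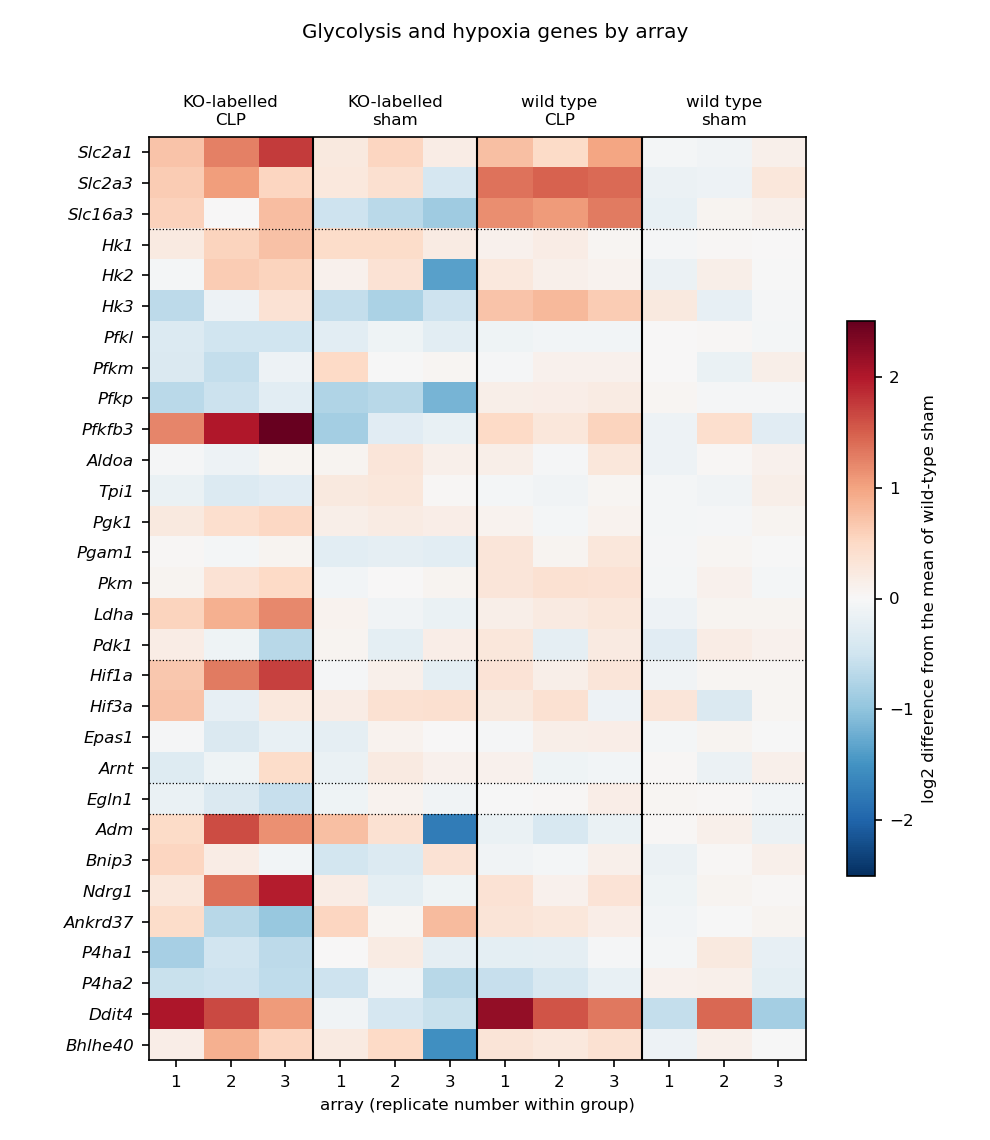
Heat map of the 30 tested members (rows, in order of role) on the 12 arrays (columns), as the log2 difference of each array from the mean of the 3 wild-type sham arrays. Pfkfb3, Hif1a and Ldha are highest on the knockout-labelled CLP arrays, Slc2a3 on the wild-type CLP arrays, and knockout-labelled sham array 3 is low for Hk2, Adm and Bhlhe40.

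All 3 transporters were higher after CLP in knockout-labelled lung, where 10.4% of all probe sets rose, though Slc16a3 was tested only through CLP arrays. Slc2a3, the high-affinity glucose transporter of neurons and leukocytes (probe set 1437052_s_at), had signals of 600.2, 798 and 556 on knockout-labelled CLP arrays and 461, 504 and 286 on knockout-labelled sham arrays. Its signals were 988, 1066 and 1033 on wild-type CLP arrays and 344, 352 and 465 on wild-type sham arrays. Neither pair of groups overlapped, and the wild-type CLP arrays were above every other array. The log2 difference was 0.66 ± 0.20 (SE) in knockout-labelled lung (adjusted p = 0.0265) and 1.42 ± 0.20 in wild-type lung (adjusted p = 0.00572). The test of the difference between these responses did not pass (-0.75 ± 0.28, adjusted p = 0.141), except without knockout-labelled sham array 3 (-1.003, adjusted p = 0.0118). The knockout-labelled call was made in 10 of the 12 fits that leave out 1 array and lost, for example, without knockout-labelled CLP array 2 (adjusted p = 0.111). After CLP the knockout-labelled lungs were lower than wild type (log2 difference -0.67 ± 0.20, adjusted p = 0.0242), a call made in 7 of those fits and lost, for example, without knockout-labelled CLP array 3 (adjusted p = 0.0839).

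Slc16a3, the lactate exporter of highly glycolytic cells (1449005_at), was weak, with signals above the array median on only 5 arrays, the 3 wild-type CLP arrays and knockout-labelled CLP arrays 1 and 3. It was thus tested only through the groups where it was high, and its values are given as a description. With no filter its adjusted p was 0.00972 for CLP in knockout-labelled lung, 0.0783 for CLP in wild-type lung and 0.0737 between genotypes after CLP. It had 37.7, 24.4 and 43.6 on knockout-labelled CLP arrays, 15.9, 13.9 and 11.6 on knockout-labelled sham arrays, 58.4, 54.6 and 65.0 on wild-type CLP arrays and 20.8, 25.4 and 26.8 on wild-type sham arrays. CLP arrays were above the sham arrays of their genotype in both. The log2 differences were alike in size, 1.14 ± 0.24 in knockout-labelled lung (adjusted p = 0.00456) and 1.18 ± 0.24 in wild-type lung (adjusted p = 0.0401), with a difference of -0.04 ± 0.34 between them. As with all folds given here, these are on the scale of log2 of the signal plus 3.47, which understates the change of weak probe sets. After CLP Slc16a3 was lower in knockout-labelled than in wild-type lung, with no overlap (log2 difference -0.73 ± 0.24, adjusted p = 0.0376), and this was lost without knockout-labelled CLP array 2 (adjusted p = 0.143).

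Slc2a1, the basal glucose transporter and a classical HIF target (1434773_a_at), had 398, 583 and 821 on knockout-labelled CLP arrays and 288, 351 and 275 on knockout-labelled sham arrays. On wild-type arrays it had 407, 339.8 and 479 after CLP and 234, 228 and 265 after sham. CLP arrays stood above sham arrays in both genotypes, but only the knockout-labelled difference passed the test (0.92 ± 0.22, adjusted p = 0.00803, against 0.74 ± 0.22, adjusted p = 0.206, in wild type). The 2 responses differed by 0.18 ± 0.31 (adjusted p = 0.765), and its other 2 probe sets rose in knockout-labelled lung too.

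**Figure D2:**
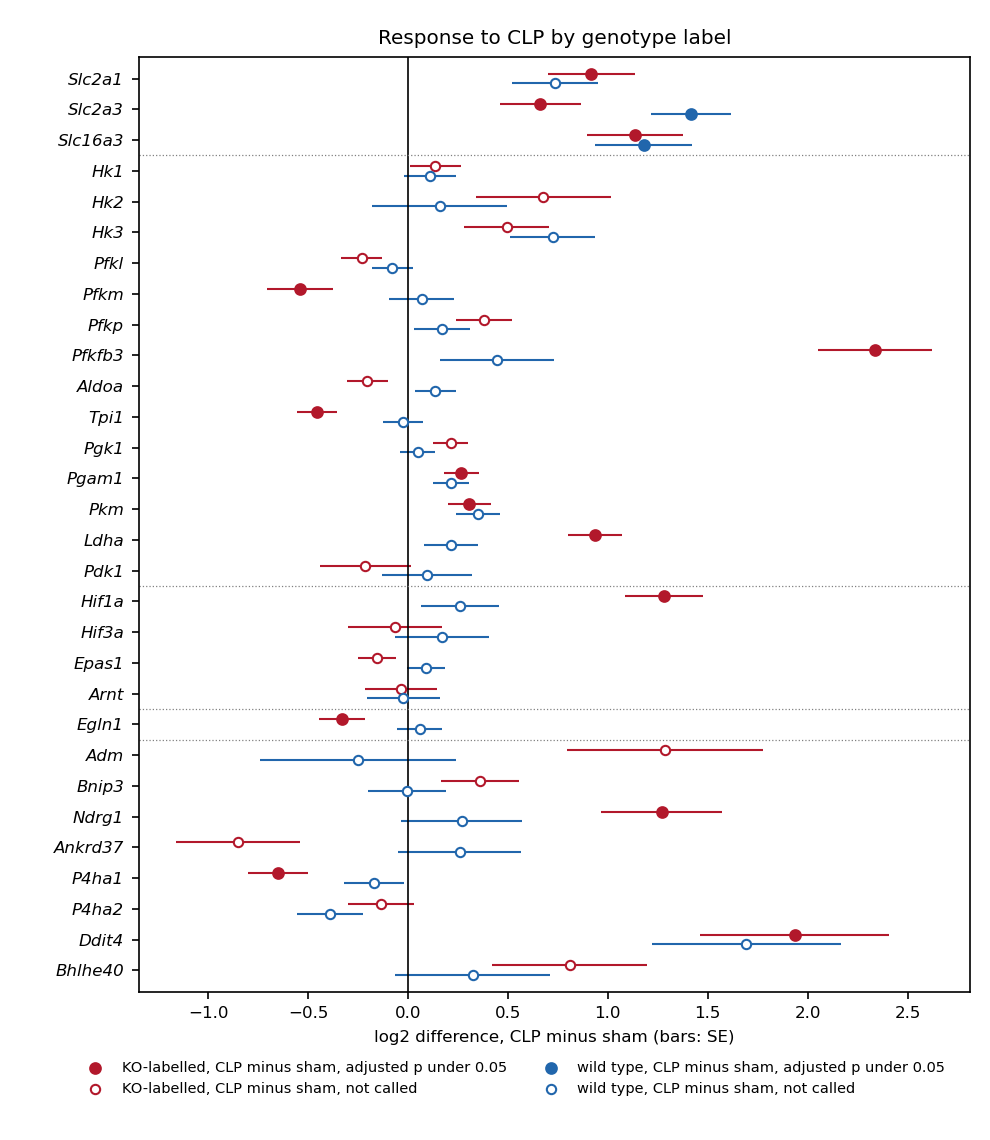
Log2 difference of CLP minus sham for each of the 30 tested members, knockout-labelled (red, upper of each pair) and wild type (blue), with bars of 1 SE. Filled points passed an adjusted p under 0.05: 14 in knockout-labelled lung and 2 in wild-type lung.

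Of the glycolytic enzymes and their regulators, 14 were tested: 4 rose and 2 fell in knockout-labelled lung, and none was called in wild-type lung. The shares over all probe sets were 10.4% up and 18.8% down in knockout-labelled lung and 0.948% called in wild-type lung. The counts were not tested against them. Pfkfb3, the kinase that makes the sugar phosphate by which phosphofructokinase is switched on (1416432_at), changed most of all members. Its signal was 606, 1042 and 1488 on knockout-labelled CLP arrays and 143, 213 and 229 on knockout-labelled sham arrays, against 367, 317 and 382 on wild-type CLP arrays and 236, 346 and 212 on wild-type sham arrays. Each knockout-labelled CLP array was above all other arrays, while the wild-type groups overlapped. The log2 difference was 2.34 ± 0.29, or 5.06-fold, in knockout-labelled lung (adjusted p = 0.000214) and 0.45 ± 0.29 in wild-type lung (adjusted p = 0.785).

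Pfkfb3 was the 1 member for which the difference between the 2 responses passed the test, at 1.89 ± 0.40 (adjusted p = 0.0288), against a background of 4.05% of probe sets called. A second Pfkfb3 probe set gave 1.98 ± 0.41 (adjusted p = 0.0268). The call was made in 3 of the 12 fits that leave out 1 array, at an adjusted p of up to 0.0867 without wild-type CLP array 2, and the estimate stayed between 1.59 and 2.24. After CLP, knockout-labelled lung was above wild-type lung by 1.46 ± 0.29 (adjusted p = 0.00277).

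Ldha, which reduces pyruvate to lactate (1419737_a_at), had 1945, 2432 and 3029 on knockout-labelled CLP arrays and 1404, 1239.6 and 1176 on knockout-labelled sham arrays. On wild-type arrays it had 1459.6, 1536 and 1606 after CLP and 1206, 1384 and 1376 after sham. The knockout-labelled CLP arrays were again above all others, and the wild-type CLP arrays were just above wild-type sham. The difference was 0.93 ± 0.13 in knockout-labelled lung (1.91-fold, adjusted p = 0.000565) and 0.22 ± 0.13 in wild-type lung (adjusted p = 0.774). The difference between responses, 0.72 ± 0.19, lay just outside the threshold (adjusted p = 0.0543) and passed it once arrays were centred on their medians (0.81, adjusted p = 0.043), or without knockout-labelled CLP array 1 (adjusted p = 0.00604) or knockout-labelled sham array 3 (adjusted p = 0.0441).

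Pgam1, the phosphoglycerate mutase of most tissues, and Pkm, pyruvate kinase, moved by much less. Pgam1 had 657, 623 and 679 on knockout-labelled CLP arrays and 538, 552 and 536 on knockout-labelled sham arrays (log2 difference 0.27 ± 0.09, adjusted p = 0.0386). Pkm had 833, 1022 and 1126 on knockout-labelled CLP arrays and 753, 804 and 835 on knockout-labelled sham arrays, with 1 CLP array inside the sham range (0.31 ± 0.11, adjusted p = 0.0496). Both calls were made in only 2 of the 12 fits that leave out 1 array, and without knockout-labelled CLP array 3 the adjusted p was 0.0896 for Pgam1 and 0.165 for Pkm. The wild-type differences were of like size, 0.22 ± 0.09 for Pgam1 (adjusted p = 0.486) and 0.35 ± 0.11 for Pkm (adjusted p = 0.24), and in both genes the 3 wild-type CLP arrays were above the 3 wild-type sham arrays.

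Pfkm and Tpi1 fell. Tpi1, triose phosphate isomerase (1452927_x_at), had 773, 685 and 709 on knockout-labelled CLP arrays and 1034, 1061 and 883 on knockout-labelled sham arrays, with no overlap. The log2 difference was -0.45 ± 0.10 (adjusted p = 0.00569), and its other 2 probe sets gave -0.49 and -0.48. Wild-type lung showed -0.03 ± 0.10 (adjusted p = 0.986), with signals of 843, 816 and 899.5 after CLP and 836, 817 and 957 after sham, and the responses differed by -0.43 ± 0.14 (adjusted p = 0.102). Pfkm, the muscle form of phosphofructokinase, had 129, 109 and 152 on knockout-labelled CLP arrays and 237, 165 and 174 on knockout-labelled sham arrays (-0.54 ± 0.16, adjusted p = 0.0265), a call lost without knockout-labelled sham array 1 (adjusted p = 0.108). The summed signal of the striated muscle markers moved the same way, at 4099 to 7570 in knockout-labelled CLP lung and 9433 to 14726 in knockout-labelled sham lung, against 3347 to 4180 on the wild-type arrays. Of these markers, 7 of the 9 tested fell in the knockout-labelled comparison, against 18.8% of all probe sets. Their part in the fall of Pfkm was not tested.

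These falls, with those of Egln1 and P4ha1, depend on which samples are fitted and on how the arrays are scaled. With the 2 knockout-labelled groups alone the adjusted p was 0.055 for Tpi1, 0.12 for Pfkm, 0.186 for Egln1 and 0.0501 for P4ha1. The median log2 difference of all probe sets tested was -0.123 after CLP in knockout-labelled lung, and centring each array on its median over the probe sets tested raised every log2 difference by 0.130. With that, 13 members rose and 2 fell, Tpi1 (adjusted p = 0.0349) and P4ha1 (0.0255), while Pfkm (0.079) and Egln1 (0.209) missed the threshold. Of all probe sets called, 56.6% were then up, against 35.6% with the deposited scaling. With centring over all probe sets, tested or not, 15 members rose and none fell (at an adjusted p of 0.121 for Tpi1 and 0.0567 for P4ha1), and 70.4% of the calls over all probe sets were up.

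Hk1 and Hk2, the hexokinases that trap glucose in the cell, showed no called response to CLP. Hk2 had 432, 697 and 657 on knockout-labelled CLP arrays and 481, 574 and 172 on knockout-labelled sham arrays, where array 3 was far below the rest (difference 0.68 ± 0.34, adjusted p = 0.149, and 0.15 without that array). Hk3, the hexokinase of leukocytes, had 86.7, 125 and 178 on knockout-labelled CLP arrays and 90.4, 78.2 and 94.8 on knockout-labelled sham arrays (0.49 ± 0.21, adjusted p = 0.0989). On wild-type arrays Hk3 had 229, 246 and 216 after CLP and 163, 119 and 135 after sham, groups that did not overlap (0.72 ± 0.21, adjusted p = 0.206). A second Hk3 probe set rose in knockout-labelled lung (0.90 ± 0.20, adjusted p = 0.00527).

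Pfkl and Pfkp, the liver and platelet forms of phosphofructokinase, Aldoa, an aldolase, Pgk1, phosphoglycerate kinase, and Pdk1, the kinase that closes pyruvate dehydrogenase, were not called for CLP by their chosen probe sets. Their log2 differences in knockout-labelled lung ran between -0.23 for Pfkl and 0.38 for Pfkp. Other probe sets of the same genes were called there: 1439148_a_at of Pfkl fell (-1.07 ± 0.15, adjusted p = 0.00045), 1423747_a_at of Pdk1 fell (-1.41 ± 0.23, adjusted p = 0.00105), 1430634_a_at of Pfkp rose (0.54 ± 0.16, adjusted p = 0.0264) and 1439375_x_at of Aldoa fell (-0.30 ± 0.10, adjusted p = 0.0387). Of 18 members with more than 1 tested probe set, 8 were called in this comparison by the chosen one, and in all 8 the others had the same sign. In 6 others, Hk3, Pfkl, Pfkp, Aldoa, Pdk1 and Adm, only another probe set was called. Between genotypes after CLP the probe sets disagreed more often, as given below.

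Gapdh, the dehydrogenase often used as a loading control, could be read only from the 3 control probe sets, added to the table after the data had been seen. For its middle probe set the signals were 3099, 3354 and 3209.7 on knockout-labelled CLP arrays and 2386, 2287 and 2412 on knockout-labelled sham arrays, against 2310.1, 2137 and 2358 on wild-type CLP arrays and 2175, 2185 and 2245 on wild-type sham arrays. The knockout-labelled CLP arrays were above all others, by 0.45 ± 0.065 (SE) over knockout-labelled sham (adjusted p = 0.000593), and the wild-type difference was 0.04 ± 0.065 (adjusted p = 0.96). The other 2 control probe sets rose by 0.35 and 0.33 in knockout-labelled lung.

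**Figure D3:**
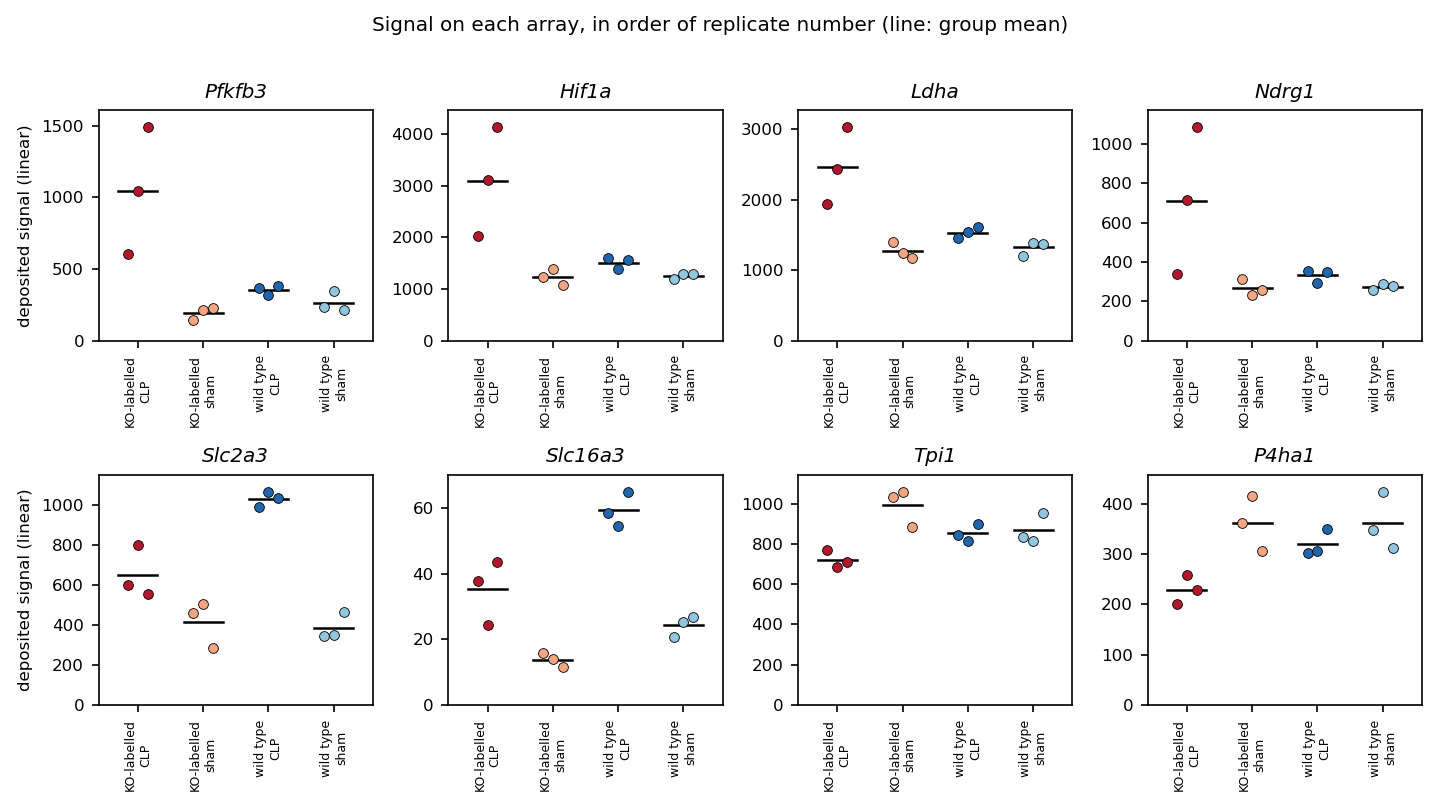
Deposited signal (linear axes from 0) of 8 members on each array, with group means as lines. Pfkfb3, Hif1a and Ldha are highest on the knockout-labelled CLP arrays, Slc2a3 and Slc16a3 on the wild-type CLP arrays, and Tpi1 and P4ha1 are lowest on the knockout-labelled CLP arrays.

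Among the 4 HIF subunits only Hif1a was called for CLP, in knockout-labelled lung, where 29.2% of all probe sets were called. Hif1a, the alpha subunit that is stabilised when oxygen is short (1427418_a_at), had 2017, 3113 and 4126 on knockout-labelled CLP arrays and 1226, 1379 and 1065 on knockout-labelled sham arrays. On wild-type arrays it had 1588, 1387 and 1554 after CLP and 1183, 1295 and 1296 after sham. Its pattern over arrays was that of Ldha, with knockout-labelled CLP above all others and the wild-type groups close but not overlapping. The difference was 1.28 ± 0.19 in knockout-labelled lung (2.43-fold, adjusted p = 0.000751) and 0.26 ± 0.19 in wild-type lung (adjusted p = 0.833). The responses differed by 1.02 ± 0.27 (adjusted p = 0.0564), which passed with arrays centred on their medians (1.11, adjusted p = 0.0483), without knockout-labelled CLP array 1 (1.29, adjusted p = 0.00199) and without knockout-labelled sham array 3 (0.92, adjusted p = 0.0498). A second probe set, 1448183_a_at, gave 1.42 ± 0.34 (adjusted p = 0.037) and the last, 1416035_at, 0.82 ± 0.29 (adjusted p = 0.116).

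Epas1, the alpha subunit typical of endothelium, had 9347, 7444 and 8397 on knockout-labelled CLP arrays and 8228, 10206 and 9577 on knockout-labelled sham arrays, which overlapped (difference -0.15 ± 0.09, adjusted p = 0.236). Arnt, the shared beta subunit, differed by -0.03 ± 0.18, and Hif3a, a less studied alpha subunit, by -0.07 ± 0.24, neither of them called. In wild-type lung the differences of Epas1, Arnt and Hif3a lay between -0.02 and 0.17.

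Of the oxygen sensors, Egln1, the main prolyl hydroxylase acting on HIF alpha subunits, had 462, 405 and 345 on knockout-labelled CLP arrays and 479, 549 and 488 on knockout-labelled sham arrays. The groups did not overlap, and the difference of -0.33 ± 0.11 passed (adjusted p = 0.0475), in 2 of the 12 fits that leave out 1 array and not without knockout-labelled sham array 2 (adjusted p = 0.154) or with centred arrays, as above. Wild-type lung showed 0.06 ± 0.11 (adjusted p = 0.974). Egln3, a HIF-induced hydroxylase, was not tested, and its signals were 19.8, 17.1 and 24.1 on knockout-labelled CLP arrays and 41.4, 38.7 and 26.1 on knockout-labelled sham arrays, against 31.3, 32.6 and 30.8 on wild-type CLP arrays and 15.2, 24.8 and 14.4 on wild-type sham arrays.

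Of the 8 other hypoxia-induced genes, Ndrg1 and Ddit4 rose and P4ha1 fell after CLP in knockout-labelled lung, and none was called in wild-type lung. Over all probe sets 10.4% rose and 18.8% fell in knockout-labelled lung, and 0.948% were called in wild-type lung. The counts were not tested against these shares. Ndrg1, a stress and differentiation gene, had 336, 717 and 1086 on knockout-labelled CLP arrays and 311, 231 and 255 on knockout-labelled sham arrays (1.27 ± 0.30, adjusted p = 0.00846). On wild-type arrays it had 353, 294 and 350.1 after CLP and 256, 288 and 279.9 after sham (0.27 ± 0.30, adjusted p = 0.919). Of all members it spread most between the knockout-labelled CLP arrays, with array 1 just above the highest sham array, and its 4 other probe sets rose too.

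Ddit4, an inhibitor of growth signalling induced by hypoxia and by glucocorticoids, had 1207, 935 and 624 on knockout-labelled CLP arrays and 277, 221 and 199 on knockout-labelled sham arrays. The wild-type values were 1355, 878 and 745 after CLP and 194, 805 and 162 after sham. The CLP arrays of the genotypes overlapped, and wild-type sham array 2 reached the CLP range. The difference was 1.94 ± 0.47 in knockout-labelled lung (adjusted p = 0.00936) and 1.69 ± 0.47 in wild-type lung (adjusted p = 0.17), where it became 2.41 (adjusted p = 0.00429) without wild-type sham array 2. The responses differed by 0.24 ± 0.67 (adjusted p = 0.864).

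P4ha1, a collagen prolyl hydroxylase and HIF target (1452094_at), had 200.4, 257 and 227 on knockout-labelled CLP arrays, all below the 362, 415 and 306 on knockout-labelled sham arrays (-0.65 ± 0.15, adjusted p = 0.00721). In wild-type lung it had 301, 306 and 349 after CLP and 348, 424 and 312 after sham, which overlapped (-0.17 ± 0.15, adjusted p = 0.877). P4ha2, its relative, differed by -0.13 ± 0.17 in knockout-labelled lung and -0.39 ± 0.17 in wild-type lung, neither called.

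Adm, the vasodilator adrenomedullin, had 245, 549 and 393 on knockout-labelled CLP arrays and 298, 229 and 49.8 on knockout-labelled sham arrays, where array 3 was the lowest of all 12 arrays. Its difference of 1.29 ± 0.49 missed the threshold (adjusted p = 0.0657) and was 0.52 (adjusted p = 0.137) without that array. A second probe set passed (1.44 ± 0.47, adjusted p = 0.0368). The wild-type CLP arrays, at 154, 131 and 156, lay below the wild-type sham arrays, at 178, 191 and 157 (-0.25 ± 0.49, adjusted p = 0.974). Bhlhe40, a hypoxia-induced repressor, was likewise low on knockout-labelled sham array 3 (1021, 1702 and 1334 on knockout-labelled CLP arrays and 1067, 1288 and 311 on knockout-labelled sham arrays), and its difference of 0.81 ± 0.39 was 0.18 without it. Bnip3, a mitophagy receptor, and Ankrd37, a small HIF target, differed by 0.36 ± 0.20 and -0.85 ± 0.31 in knockout-labelled lung, with overlapping arrays and no call. Ankrd37 was called without knockout-labelled CLP array 1 (-1.27, adjusted p = 0.00168).

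Set against each other, the 17 transporters and glycolytic enzymes tested had 7 rises and 2 falls in knockout-labelled lung, with a median log2 difference of 0.307. The 7 include Slc16a3, which was tested only through CLP arrays. The 13 HIF subunits, sensors and other hypoxia genes had 3 rises and 2 falls, with a median of -0.034. A log2 difference beyond 1 in either direction was seen in 2 of the 17 and in 4 of the 13. Over all probe sets 10.4% rose and 18.8% fell, and the difference between the sets was not tested. In wild-type lung the difference was above 0 for 15 of the 17 glycolysis genes and for 8 of the 13 hypoxia genes. The medians by array, each as the log2 difference from wild-type sham, show how far this rests on single arrays. For the glycolysis genes they were 0.067, 0.009 and 0.501 on knockout-labelled CLP arrays and 0.076, -0.018 and -0.166 on knockout-labelled sham arrays, against 0.259, 0.167 and 0.277 on wild-type CLP arrays. For the hypoxia genes they were 0.291, -0.106 and 0.254 on knockout-labelled CLP arrays and -0.036, 0.094 and -0.105 on knockout-labelled sham arrays, against 0.099, 0.098 and 0.157 on wild-type CLP arrays. The median over all probe sets tested was between -0.130 and -0.049 on the knockout-labelled CLP arrays and between -0.055 and -0.032 on the wild-type CLP arrays. The wild-type CLP medians lay close together in both sets, whereas the glycolysis median of knockout-labelled CLP array 3 was far above those of the other 2. By means in place of medians, the 2 sets were more alike in knockout-labelled lung. The glycolysis means were 0.127, 0.281 and 0.450 on CLP arrays and -0.065, -0.034 and -0.247 on sham arrays. The hypoxia means were 0.265, 0.333 and 0.318 on CLP arrays and 0.023, 0.075 and -0.273 on sham arrays.

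**Figure D4:**
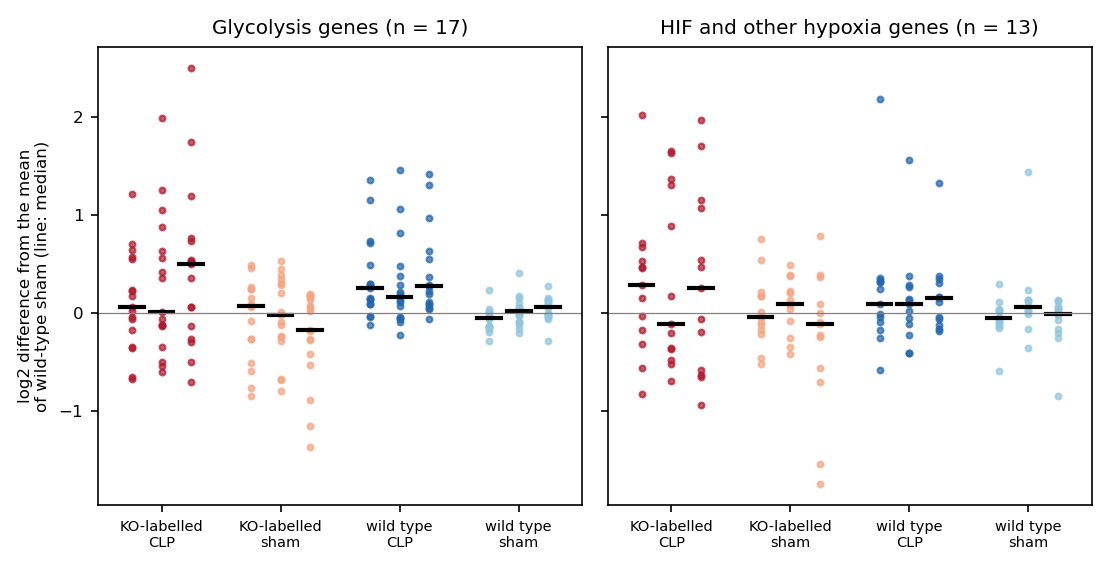
Log2 difference from the mean of wild-type sham for each tested member (points) on each array, with the median per array as a line: 17 glycolysis genes on the left and 13 HIF and other hypoxia genes on the right. The knockout-labelled CLP arrays spread most, with glycolysis medians of 0.067, 0.009 and 0.501.

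The knockout-labelled CLP arrays also differed from each other across members. Of the 10 members that rose there, array 1 was the lowest of its group in 6 and array 3 the highest in 8. The SD over the 3 arrays had a median of 0.309 over the 30 members on the log2 scale, against 0.226 over all probe sets tested. In the other groups the members' median SD was 0.194 in knockout-labelled sham lung (0.227 over all probe sets), 0.107 in wild-type CLP lung (0.130) and 0.127 in wild-type sham lung (0.132).

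Between genotypes after CLP, 6 of the 30 members were higher and 8 lower in knockout-labelled than in wild-type lung, at a background of 29.5% of probe sets called (12.6% up and 16.9% down). Pfkfb3, Hif1a, Ndrg1, Ldha, Hk1 and Pgk1 were higher. Hk1 had 411, 518 and 585 on knockout-labelled CLP arrays against 375, 401 and 360.4 on wild-type CLP arrays (0.40 ± 0.13, adjusted p = 0.0352), and Pgk1 had 1108, 1261 and 1342 on knockout-labelled CLP arrays against 1006, 911 and 1006 on wild-type CLP arrays (0.34 ± 0.09, adjusted p = 0.0124). Neither pair overlapped. Hif1a was higher by 0.97 ± 0.19 (adjusted p = 0.00308), Ldha by 0.66 ± 0.13 (adjusted p = 0.0034) and Ndrg1 by 0.94 ± 0.30 (adjusted p = 0.0336), the last with overlapping arrays.

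Lower in knockout-labelled CLP lung were the transporters Slc2a3 and Slc16a3, the enzymes Hk3, Pfkl and Pfkp, and Epas1, Egln1 and P4ha1. The log2 difference was -0.87 ± 0.21 for Hk3 (adjusted p = 0.00963) and -0.66 ± 0.14 for Pfkp (adjusted p = 0.00444), which had the smallest adjusted p of these. Pfkl (-0.37), Egln1 (-0.43) and P4ha1 (-0.48) did not overlap between genotypes, while Epas1 (-0.28) did. The summed signal of 6 endothelial markers was 8370 to 8653 in knockout-labelled CLP lung and 7768 to 9233 in knockout-labelled sham lung, against 11099 to 11217 in wild-type CLP lung and 10314 to 10877 in wild-type sham lung. Of the 6, Kdr (-1.46) and Tek (-1.33) were called lower in knockout-labelled than in wild-type lung after CLP and the others were not, and both also fell after CLP in knockout-labelled lung (-1.27 and -0.85). Their part in the difference of Epas1 was not tested.

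Of the 12 members called here that have more than 1 tested probe set, the others had the same sign in 8. In Slc2a3 (-0.67 to 0.52), Pfkp (-0.66 to 0.18), Pgk1 (-0.25 to 0.34) and Egln1 (-0.43 to 0.02) they did not. With the probe sets of a gene averaged, the count of 14 was 7: Pfkfb3, Ldha, Hif1a, Ndrg1, Hk3, Pfkl and Slc16a3. The count of 14 was 6 without wild-type CLP array 2 or 3 and 9 without wild-type CLP array 1, knockout-labelled CLP array 2 or knockout-labelled CLP array 3. Pfkfb3, Ldha, Hif1a, Hk3 and Pfkp were called in all 12 such fits. Hk1 was called in 5 of them (adjusted p of up to 0.124, without knockout-labelled CLP array 3), Ndrg1 in 7 (0.122, without knockout-labelled CLP array 3), P4ha1 in 7 (0.108, without wild-type CLP array 3), Epas1 in 6 (0.153, without knockout-labelled CLP array 2), Pfkl in 9 (0.0606, without wild-type CLP array 2), Egln1 in 10 (0.0622, without wild-type CLP array 3) and Pgk1 in 11 (0.0616, without wild-type CLP array 2).

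After sham surgery, 1 of the 30 members differed between genotypes, at a background of 8.34% of probe sets called. Pfkp had 199, 209.7 and 150.3 on knockout-labelled sham arrays against 349, 334 and 334 on wild-type sham arrays, with no overlap (-0.87 ± 0.14, adjusted p = 0.00191). It was below wild type after CLP too, at 212, 233 and 283 on knockout-labelled CLP arrays against 374, 381 and 389.5 on wild-type CLP arrays. The difference of this probe set, 1416069_at, was called in all 12 fits that leave out 1 array after either surgery. The other tested one, 1430634_a_at, had 81.3, 101 and 71.6 on knockout-labelled CLP arrays against 84.9, 73.8 and 64.1 on wild-type CLP arrays, which overlapped (0.18 ± 0.16, adjusted p = 0.442), and gave -0.31 ± 0.16 after sham (adjusted p = 0.292). Averaged, they gave -0.24 after CLP (adjusted p = 0.161) and -0.59 after sham (adjusted p = 0.011). Hk3 had -0.63 ± 0.21 (adjusted p = 0.0899) and Slc16a3 -0.69 ± 0.24 (adjusted p = 0.104) after sham, both with knockout-labelled arrays below all wild-type arrays but past no threshold. The second Hk3 probe set was called lower (-1.14 ± 0.20, adjusted p = 0.00293). In all, 8 of the 30 did not overlap after sham, at 29.6% of all probe sets. Slc2a1, Hk1 and Pgk1 were above wild type, and Pfkp, Hk3, Slc16a3, Pfkl and Pgam1 below. Hk1 had 483, 481 and 402 on knockout-labelled sham arrays against 343, 356 and 352 on wild-type sham arrays. Pgam1 had 538, 552 and 536 on knockout-labelled sham arrays against 634, 668 and 640 on wild-type sham arrays.

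**Figure D5:**
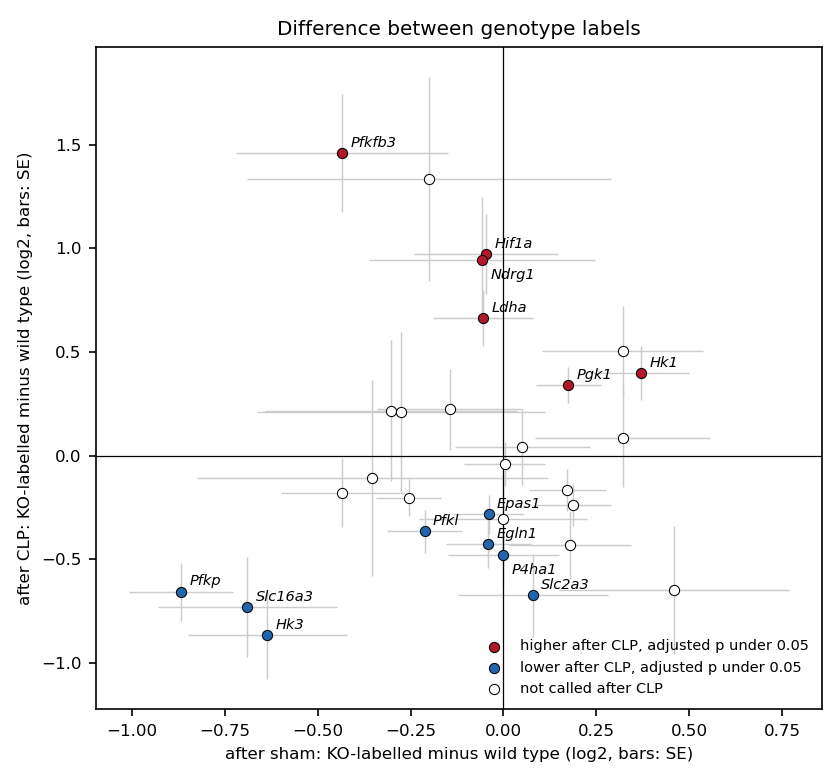
Difference between knockout-labelled and wild-type lung (log2, bars 1 SE) after CLP, on the vertical axis, and after sham, on the horizontal axis, for the 30 tested members. Members called after either surgery are named: Pfkfb3, Hif1a, Ndrg1 and Ldha lie high after CLP and were not called after sham, while Pfkp, Hk3 and Slc16a3 lie below 0 on both axes.

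Genes around these pathways were counted the same way, against the 29.2% of all probe sets called in knockout-labelled lung (10.4% up and 18.8% down). The lists are short, and their shares were not tested against it. Of 9 further glycolysis isoforms tested, 2 rose and 2 fell in knockout-labelled lung: Slc16a1, a monocarboxylate transporter (0.89 ± 0.18, adjusted p = 0.003), and Pfkfb4, a relative of Pfkfb3 (0.48 ± 0.11, adjusted p = 0.00863), rose, and the muscle isoforms Eno3 (-1.04 ± 0.18, adjusted p = 0.00167) and Pgam2 (-0.87 ± 0.27, adjusted p = 0.0276) fell, Pgam2 not without knockout-labelled sham array 2 (adjusted p = 0.114). Eno3 and Pgam2 were also higher in knockout-labelled than in wild-type lung after sham (0.91 ± 0.18 and 1.30 ± 0.27), beside the striated muscle markers given above. Of those markers 7 of 9 were higher there, against 4.48% of all probe sets. Of 12 genes for pyruvate entry to the mitochondria, Dld (0.45 ± 0.09, adjusted p = 0.00271) and Pdhx (0.48 ± 0.13, adjusted p = 0.0188), components of the pyruvate dehydrogenase complex, rose, Pdhx not without knockout-labelled CLP array 1 (adjusted p = 0.0506). Pdk2 (-0.70 ± 0.14, adjusted p = 0.00281), a kinase that inhibits it, and Pdp1 (-1.06 ± 0.24, adjusted p = 0.00625), a phosphatase that reactivates it, fell.

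None of 6 genes of the pentose phosphate pathway was called in any comparison. Of 4 genes of gluconeogenesis, Fbp1 (0.91 ± 0.19, adjusted p = 0.00453) and Fbp2 (0.80 ± 0.13, adjusted p = 0.000989), fructose bisphosphatases that oppose phosphofructokinase, rose in knockout-labelled lung and Pck2, a mitochondrial carboxykinase, fell (-0.58 ± 0.15, adjusted p = 0.0116). Of 22 further HIF targets 3 rose and 2 fell, beside 10.4% of all probe sets up and 18.8% down, and the shares were not tested. Hmox1, heme oxygenase, changed most: it had 304, 497 and 922 on knockout-labelled CLP arrays and 181, 187 and 116 on knockout-labelled sham arrays, against 186, 153 and 136 on wild-type CLP arrays and 186, 178 and 147 on wild-type sham arrays. Its rise was 1.70 ± 0.32 (adjusted p = 0.00224), and Lox, a collagen cross-linker (0.91 ± 0.26, adjusted p = 0.022), and Pgf, a placental growth factor (0.74 ± 0.20, adjusted p = 0.0152), rose too. Lox and Pgf were each called in 9 of the 12 fits that leave out 1 array, with an adjusted p of up to 0.0929 for Lox without knockout-labelled sham array 2 and 0.0617 for Pgf without knockout-labelled sham array 1. Plod2, a lysyl hydroxylase (-0.88 ± 0.22, adjusted p = 0.0116), and Fam162a (-0.48 ± 0.12, adjusted p = 0.00981) fell.

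Of 10 regulators of HIF, Egln2, a prolyl hydroxylase, rose (0.52 ± 0.12, adjusted p = 0.00796). Vhl, which recruits hydroxylated HIF alpha for destruction (-0.32 ± 0.11, adjusted p = 0.0485), and Hsp90aa1, a chaperone (-0.25 ± 0.09, adjusted p = 0.0466), fell. Vhl was called in 1 of the 12 fits that leave out 1 array (adjusted p of up to 0.174, without knockout-labelled CLP array 2) and Hsp90aa1 in 3 (up to 0.18, without knockout-labelled sham array 2). None of the genes of these 6 lists was called for CLP in wild-type lung, where only 0.948% of all probe sets were called.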

How the data were processed

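Total RNA from whole lung was measured on 12 arrays, in groups taken from the labels. The authors deposited linear signal intensities per probe set; GCOS, MAS5 and the Affymetrix Expression Console are named, without versions or roles, per the submitters' processing notes. The table holds 45101 probe sets with no detection calls. The 64 control probe sets were left out. Array medians ran from 31.1 to 38.4, and their median was 34.7. A pseudocount of 3.47, or 10% of that median, was added before log2 was taken. Probe sets entered the fit, 24574 in all, where 3 or more of the 12 arrays gave a signal higher than the median of that array. Symbols came from the platform table, in which 34945 probe sets carry 1 symbol. Names and promoter windows came from RefSeq (GRCm38.p6).

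Groups were compared with limma 3.58.1 in R 4.3.3: 4 group means, contrasts, moderated statistics with an intensity trend, and Benjamini-Hochberg adjustment over all probe sets tested in a contrast, with calls at an adjusted p under 0.05. Every adjusted p in the text is from this fit or the alternative named. The code was tested on simulated data. Tables were made with Python 3.11.15 and pandas 2.3.3. For arrays, their number limits the precision.

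All 34 members are named, and of the other pathway lists up to 4 called genes of smallest p per list and comparison. The members, lists and tests were chosen with earlier results of these data known. Alternatives were another pseudocount, filter, normalisation, scaling, moderation, probe set rule and choice of samples, array weights, a replicate block and each array left out. Probe sets with several symbols were not used.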

Additional observations from a re-analysis of the deposited data

Results flagged for a closer look

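Each of the following passed the interaction test of limma at an adjusted p under 0.05. Values are the log2 response to CLP in knockout-labelled lung minus that in wild-type lung. Over all probe sets 4.05% were called. By the chosen probe sets 1 of the 30 members was called, Pfkfb3, and 0 to 5 were with 1 array left out. Pfkfb3 did so with both of its probe sets, 1416432_at at 1.89 (adjusted p = 0.0288) and 1456676_a_at at 1.98 (adjusted p = 0.0268). Hif1a did so with 1 of its 3 tested, 1448183_a_at, at 1.42 (adjusted p = 0.037). The middle control probe set of Gapdh gave 0.41 (adjusted p = 0.0329). Its other 2 control probe sets gave 0.23 (adjusted p = 0.165) and 0.35 (adjusted p = 0.0682), neither called.

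Probe sets other than the chosen ones were flagged in the opposite direction for 2 members. Pfkl 1439148_a_at gave -0.98 (adjusted p = 0.0278), with signals of 150.4, 109 and 112 on knockout-labelled CLP arrays and 265, 297 and 225 on knockout-labelled sham arrays, against 244, 245 and 212 on wild-type CLP arrays and 237, 262 and 245 on wild-type sham arrays. Pdk1 1423747_a_at gave -1.35 (adjusted p = 0.0387), with 108, 65.1 and 137 on knockout-labelled CLP arrays and 306, 299 and 215 on knockout-labelled sham arrays, against 69.4, 74.3 and 63.3 on wild-type CLP arrays and 76.1, 67.2 and 73.7 on wild-type sham arrays. The chosen probe sets gave -0.15 for Pfkl and -0.31 for Pdk1, neither called.

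Among the surrounding genes, Dld gave 0.58 (adjusted p = 0.0293), Fbp2 0.99 (adjusted p = 0.0171) and Hmox1 1.80 (adjusted p = 0.0431). They were 1 of 12 genes tested for pyruvate entry, 1 of 4 of gluconeogenesis and 1 of 22 further HIF targets. None was called among the 9 further glycolysis isoforms, 6 pentose phosphate genes or 10 HIF regulators. Over all probe sets 4.05% were called, and the shares were not tested against it. Of the 12 fits that leave out 1 array, the call was made in 4 for Dld (highest adjusted p 0.0808, without wild-type sham array 2), in 10 for Fbp2 (0.0551, without wild-type sham array 2) and in 3 for Hmox1 (0.112, without wild-type CLP array 2).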

How the results depend on the processing

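The number of members called after CLP in knockout-labelled lung, 14, was 4 when the 2 groups were fitted alone, 19 with array weights, and 9 to 18 with 1 array left out (9 without knockout-labelled CLP array 2). With quantile normalisation it was again 14, of which 11 were called in the main fit too. In wild-type lung the count of 2 was 1 with no filter, 1 with a filter of 9 arrays, 1 with probe sets averaged per gene, 6 with array weights, 6 with the 2 groups alone, and 1 to 3 with 1 array left out. For the difference of responses, the count of 1 was 3 with arrays centred on their medians, over the probe sets tested or over all of them, 2 with probe sets averaged per gene, 11 with array weights, and 0 to 5 with 1 array left out (5 without knockout-labelled CLP array 1 or knockout-labelled sham array 3). Between genotypes after CLP, 14 became 7 with probe sets averaged per gene, 20 with array weights, and 6 to 16 with 1 array left out (6 without wild-type CLP array 2 or 3). After sham, 1 became 2 with centring over all probe sets, 2 with no intensity trend, 3 with array weights, 3 with probe sets averaged per gene, and 1 to 3 with 1 array left out (3 without knockout-labelled CLP array 1). Among the alternatives, only centring over all probe sets and the addition of the Gapdh control probe sets were unplanned, added after these results had been seen. The members, lists and tests had been chosen with earlier results of these data known, as given above. The cause of these moves was not tested. Fits of 2 groups differ from the main fit both in the number of samples and in the groups that set the spread.

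Over single members, pathway genes and alternatives, 10513 values kept direction and side of the threshold, 294 lost and 244 gained a call, and 1 changed sign: Pdk1 between genotypes after sham, called at 1.15 (adjusted p = 0.00224) as the mean of its probe sets, which disagree. Replicate numbers did not pair the arrays, since same-numbered arrays of different groups deviated together by correlations of -0.104 to 0.119. With the replicate number as a block the count in wild-type lung was 1, and the others were 12 after CLP in knockout-labelled lung, 1 for the difference of responses, 12 between genotypes after CLP and 1 after sham.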

Other observations

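Pdk1, the kinase that closes pyruvate dehydrogenase, differed between genotypes after sham surgery by 2 of its 3 tested probe sets and not by the chosen one. 1423747_a_at was higher in knockout-labelled than in wild-type sham lung by 1.85 ± 0.23 (SE, adjusted p = 0.000244) and 1423748_at by 1.59 ± 0.40 (adjusted p = 0.0264), while 1435836_at, the chosen one, gave -0.00 ± 0.23 (adjusted p = 0.999). The signals of 1423748_at were 126, 131 and 69.4 on knockout-labelled sham arrays and 25.7, 53.8 and 24.5 on wild-type sham arrays.

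Of the 22 HIF targets outside the member list, 6 were higher and 2 lower in knockout-labelled than in wild-type lung after CLP, where 29.5% of all probe sets were called (12.6% up and 16.9% down), and that share was not tested against this one. The 6 include Angptl4, an inhibitor of lipoprotein lipase (1.58 ± 0.43, adjusted p = 0.015), with 460.4, 322 and 781 on knockout-labelled CLP arrays against 127, 174 and 187 on wild-type CLP arrays, and Insig2, which retains the sterol sensor in the endoplasmic reticulum (0.68 ± 0.15, adjusted p = 0.00526). The call for Angptl4 was lost without knockout-labelled CLP array 3 (adjusted p = 0.0619). Fbp1 was higher in knockout-labelled CLP lung by 1.47 ± 0.19 (adjusted p = 0.000219) and was called in all 12 fits that leave out 1 array.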
